A study of Rattus norvegicus with 23 samples.

Results

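The miR-29 family was followed through small RNA libraries of rat PC12 cells. Its members are all entries of the deposited sRNAbench count table whose names begin with rno-miR-29a, rno-miR-29b or rno-miR-29c, which gave 6 of 413 entries: rno-miR-29a-3p, rno-miR-29b-3p, rno-miR-29c-3p, rno-miR-29a-5p, rno-miR-29b-5p and rno-miR-29c-5p, written here without the rat prefix. All 6 had enough counts to be tested, as had 269 entries in all. PC12 is a male rat pheochromocytoma line, which secretes catecholamines and can be driven towards a neuronal form. All cells had been transfected with pcDNA3 and selected with G418 to give stable clones, so the controls share the vector and the drug. One line carried pcDNA3 expressing α1ACT, a transcription factor encoded by the calcium channel gene CACNA1A, with 11 glutamine repeats and a 3xFlag tag at its C-terminus, and the other carried pcDNA3 with no insert. Each line was harvested 6 h, 24 h, 3 d or 10 d after the cultures were split. The 8 groups hold 3 libraries each except the vector group of 6 h, which holds 2, so that there were 23. The number of clones behind each line, and whether replicates were separate cultures, are not stated in the labels, so a line may be 1 clone and the p-values may measure technical spread alone. α1ACT itself cannot be read in miRNA counts, and the lines rest on their labels.

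A miRNA hairpin is cut into a duplex of a 5p and a 3p arm, and usually one arm is kept in the silencing complex while the other is degraded. In the miR-29 family the 3p arm is the one usually kept. Bases 2 to 8 of the kept arm, the seed, do most of the pairing with target mRNAs. miR-29 is known for repressing collagens and other extracellular matrix genes and the DNA methyltransferases, and in maturing neurons it represses BH3-only genes that promote cell death. It rises as the brain matures. miR-29b also carries a hexamer at its 3′ end that has been described as a nuclear import signal.

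The mature sequences show which arms can share targets and how closely the entries resemble each other. All 6 members matched the RefSeq miRNA table of build GRCr8, from which they are printed 5′ to 3′ with the seed in capitals.
miR-29a-3p: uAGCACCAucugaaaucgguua
miR-29b-3p: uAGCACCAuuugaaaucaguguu
miR-29c-3p: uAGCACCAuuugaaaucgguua
miR-29a-5p: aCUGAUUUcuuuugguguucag
miR-29b-5p: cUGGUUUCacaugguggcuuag
miR-29c-5p: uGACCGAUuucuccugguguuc
The 3 3p arms have the same seed, and of the 693 mature entries in the table they were the 3 that hold it. The 5p arms share no seed with each other. Counted from the 5′ end, miR-29a-3p and miR-29c-3p differ by the single substitution C10U, outside the seed. miR-29b-3p differs from miR-29a-3p by C10U, G18A, U21G and A22U over the 22 positions compared, and it is 1 base longer. With 1 base between miR-29a-3p and miR-29c-3p, how reads with an error or a trimmed end were split between them is uncertain.

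The hairpins show why both arms of miR-29b need not come from the same genes. In GRCr8 Mir29a and Mir29b1 are neighbours on chromosome 4, and Mir29b2 and Mir29c are neighbours on chromosome 13. The latter pair overlaps the lncRNA gene LOC102550527 (strand not considered). The miRNA genes Mir3556a, Mir3587 and Mir3556b overlap Mir29a, Mir29b1 and Mir29c in that order. The hairpins of Mir29b1 and Mir29b2 are printed with their mature arms in capitals.
Mir29b1: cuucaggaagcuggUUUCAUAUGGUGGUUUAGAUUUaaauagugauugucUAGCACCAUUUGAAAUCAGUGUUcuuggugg
Mir29b2: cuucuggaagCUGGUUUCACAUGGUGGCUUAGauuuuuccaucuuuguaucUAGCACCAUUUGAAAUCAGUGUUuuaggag
Both hairpins give the same miR-29b-3p, so its count is a sum over both genes. The sequence named miR-29b-5p belongs to Mir29b2 alone, but the 5p arm of Mir29b1 resembles it, with 16 identical bases in the best alignment. Whether reads of that arm were counted as miR-29b-5p is uncertain. The 5p arm of Mir29b1 (miR-29b-1-5p, uUUCAUAUggugguuuagauuu) had an entry only in the second deposited table, made with Chimira, where it held 0 to 8 counts per library and was not tested. The hexamer AGUGUU closes miR-29b-3p, printed here with that motif in capitals as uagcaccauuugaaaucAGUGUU, and is absent from the other members. It occurs in 8 of the 693 mature entries (1.15%, the printed strand), and a match of letters is not evidence of a working signal.

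Library depth ran from 1557147 to 5070120 miRNA counts, apart from vector 3 d replicate 1, which had 448557. Values are given as CPM, the counts of an entry relative to the library total, scaled by the trimmed mean of M values (TMM), with factors of 0.918 to 1.11. A pair of libraries went against their labels. Over 154 abundant entries, 21 of 23 libraries were closest to the column of the same name in the Chimira table, whereas vector 6 h replicate 2 and vector 10 d replicate 2 were closest to each other's columns. Their miR-29a-3p counts were 8183 and 14927 in the sRNAbench table and 15104 and 8381 in the Chimira table. The sRNAbench names were kept, and the main tests of members that use these libraries are also given with the pair exchanged or left out. Steps from 3 d to 10 d within the vector line, correlations, and the miRNA and marker lists were computed with the sRNAbench names alone. Of the marker lists, the endocrine miRNAs miR-375 and miR-7a summed to between 112268 and 190589 CPM. Muscle miRNAs summed to at most 0.383 CPM and blood miRNAs to at most 10.3 CPM, and the liver miRNA miR-122 had no entry. Fibroblast and smooth muscle miRNAs summed to 303 to 1322 CPM, glial miRNAs to 307 to 841 CPM and endothelial miRNAs to 75.0 to 143 CPM.

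The family made up 0.469% to 0.855% of a library, with a median of 0.704%. Nearly all of it was 3p arms, which held 99.0% to 99.6% of the family's counts in every library. miR-29a-3p led with a mean of 4672 ± 691 CPM (SD, n = 23) and 68.8% of all family counts, which placed it 29th among the tested entries by mean CPM. miR-29c-3p followed at 1696 ± 313 CPM and 25.3%, and miR-29b-3p at 344 ± 76.3 CPM and 5.14%. Mature miRNAs are nearly equal in length, so the CPM of arms can be set side by side, although ligation and amplification in library making can favour some sequences. The order of these arms was the same in all 23 libraries: miR-29a-3p took 66.5% to 73.2% of the 3p counts, miR-29c-3p 22.8% to 27.9% and miR-29b-3p 3.32% to 5.68%.

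The 5p arms were scarce. miR-29c-5p averaged 27.9 ± 8.45 CPM (6 to 163 counts per library), miR-29b-5p 13.1 ± 6.32 CPM (5 to 78 counts) and miR-29a-5p 8.38 ± 3.73 CPM (0 to 60 counts; SD, n = 23 for each). The ranges of the last pair overlapped widely. miR-29a-5p had 0 of 448557 counts in vector 3 d replicate 1, where 3 counts, the limit that a count of 0 allows, would be 6.73 CPM. Counts this small carry a counting error that is a large part of the value, and without molecular identifiers such limits cover counting error only.

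No difference between the α1ACT and the vector line was detected for any member. Over the 4 times, miR-29a-3p averaged 4662 ± 674 CPM in the α1ACT line (SD, n = 12) and 4683 ± 742 CPM in the vector line (n = 11). miR-29b-3p averaged 355 ± 73.4 CPM against 332 ± 81.2 CPM, and miR-29c-3p 1734 ± 330 CPM against 1654 ± 304 CPM. The ranges of the lines overlapped at every time for every member, though how often those of other entries did was not counted. In the mean of the 4 times, 0 of 6 members passed edgeR's quasi-likelihood test at a Benjamini-Hochberg adjusted p under 0.05, where 12.6% of all tested entries did, and 0 of 6 had an unadjusted p under 0.05, where 28.6% of all entries had. DESeq2 and limma-voom called 0 of 6 as well.

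The intervals of these differences reflect the spread between libraries alone. They cover neither a spread between clones nor the choice of scaling. The α1ACT line minus the vector line was -0.0017 on the log2 scale for miR-29a-3p (95% interval -0.14 to 0.13; adjusted p = 0.986), 0.10 for miR-29b-3p (-0.05 to 0.25; adjusted p = 0.416) and 0.08 for miR-29c-3p (-0.08 to 0.23; adjusted p = 0.561). The sign for miR-29a-3p changed with the scaling of the libraries. For the 5p arms the intervals were wider: miR-29b-5p gave 0.29 (-0.04 to 0.61; adjusted p = 0.243), miR-29a-5p -0.13 (-0.62 to 0.36) and miR-29c-5p -0.07 (-0.36 to 0.21), both with an adjusted p of 0.807. At single times 0 of 6 members were called in each comparison, beside 0.00% of all entries at 6 h, the same 0.372% at both 24 h and 3 d and 1.49% at 10 d. The interaction of line and time called 0 of 6 members and 0.00% of all entries, with unadjusted p of the members between 0.182 and 0.770. A miss of the threshold does not show that the lines are alike.

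**Figure D1:**
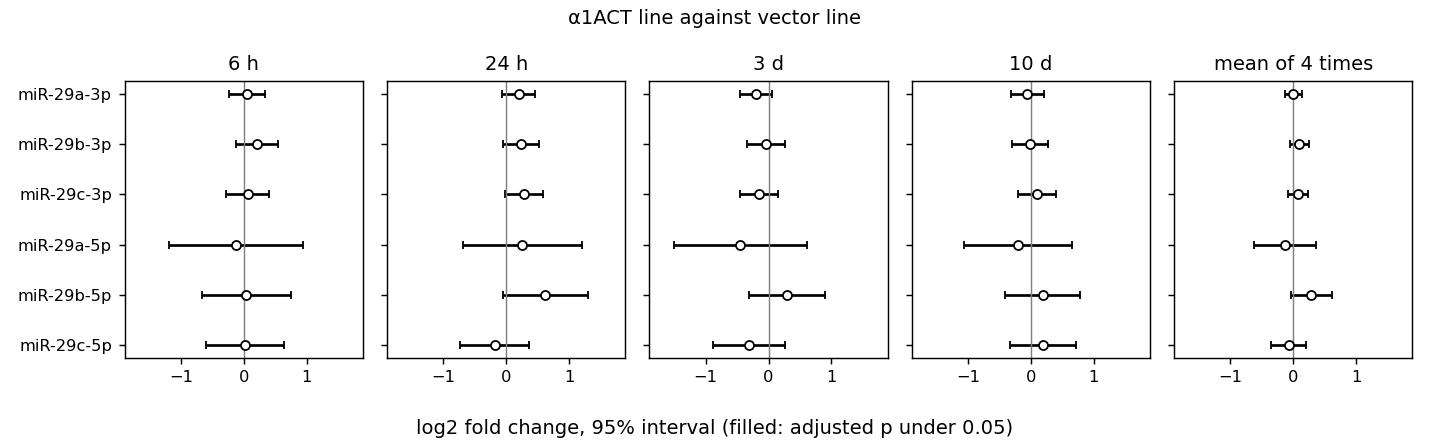
Difference between the lines for each miR-29 member, as the fitted log2 fold change of the α1ACT line over the vector line with its 95% interval, for the mean of the 4 times and for each time (filled points would mark an adjusted p under 0.05). Every interval of the mean comparison includes 0, and the widest belongs to miR-29a-5p (-0.62 to 0.36).

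Several members changed with time after splitting. In an F test over the 4 times on the mean of both lines, 5 of 6 members passed (59.9% of all entries did). These were miR-29b-3p (adjusted p = 7.13e-06), miR-29b-5p (1.75e-05), miR-29c-3p (0.00135), miR-29a-3p (0.00322) and miR-29c-5p (0.0112), while miR-29a-5p just missed the threshold (0.0502). With the doubted pair exchanged 3 of 6 passed, and with it left out 5 of 6. The share of all entries that passed in either case is not given here, so the lower count need not be particular to miR-29. Most miRNAs in these cells changed with time, so a count of this size says little about the family itself. Within the vector line 2 of 6 passed, miR-29b-3p and miR-29b-5p (36.8% of all entries), and within the α1ACT line 5 of 6 (42.4%). That the lines differ in this count was not shown, since the interaction called no member. Comparisons of neighbouring times were chosen after the values had been seen. Where libraries of 2 times are said below not to overlap, how many other entries separated likewise was not counted. Such gaps need not be particular to the family.

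miR-29b-3p, the family's nuclear-motif member, had the largest steps of the 3p arms around 3 d. In the vector line its CPM were 322 and 265 at 6 h, then 405, 276 and 367 at 24 h, 202, 248 and 312 at 3 d and finally 471, 373 and 410 at 10 d. In the α1ACT line they were 380, 314 and 324 at 6 h, then 434, 405 and 397 at 24 h, 269, 265 and 220 at 3 d and finally 424, 394 and 430 at 10 d. The mean of each line was thus lowest at 3 d and highest at 10 d, and over both lines the 3 d and 10 d libraries, as named in the sRNAbench table, did not overlap. With the doubted pair exchanged, the 265 CPM of vector 6 h replicate 2 would stand at 10 d, within the 3 d range. In the mean of both lines it fell by 0.57 on the log2 scale from 24 h to 3 d (SE 0.102, 0.674 times the level; adjusted p = 5.85e-05) and rose by 0.71 from 3 d to 10 d (SE 0.102, 1.63-fold; adjusted p = 2.70e-06). The fall was -0.43 in the vector line (adjusted p = 0.0311) and -0.71 in the α1ACT line (adjusted p = 0.000628), steps that passed for 23.8% and 22.3% of all entries. The rise was 0.69 and 0.72 (adjusted p = 0.000913 and 0.000417), beside 25.3% and 32.7% of all entries.

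miR-29a-3p, the arm with the most counts, was highest at 10 d, and lowest at 3 d in the α1ACT line alone. Its CPM in the vector line were 4938 and 3687 at 6 h, then 5265, 3548 and 4665 at 24 h, 4457, 3858 and 4768 at 3 d and finally 5923, 5136 and 5264 at 10 d. In the α1ACT line they were 4781, 4534 and 4081 at 6 h, then 5376, 5124 and 4965 at 24 h, 4282, 3628 and 3487 at 3 d and finally 5640, 4992 and 5060 at 10 d. As named in that table, every 10 d library lay above every 3 d and every 6 h library, which would not hold with the pair exchanged, and vector 24 h replicate 2 lay far below its group for all 3 of the 3p arms. From 24 h to 3 d miR-29a-3p fell by 0.24 in the mean of both lines (SE 0.0898; adjusted p = 0.0363). That call was lost under 12 of 36 alternatives, among them the Chimira table (adjusted p = 0.0600) and the exchange of the pair (adjusted p = 0.0791). The step passed in the α1ACT line (-0.44, adjusted p = 0.0129) and not in the vector line (-0.04, adjusted p = 0.881), a difference that the interaction did not show. From 3 d to 10 d miR-29a-3p rose by 0.39 (SE 0.0899, 1.31-fold; adjusted p = 0.000923), with 0.46 in the α1ACT line (adjusted p = 0.00715) and 0.32, not called, in the vector line (adjusted p = 0.0589).

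miR-29c-3p, which differs from miR-29a-3p by 1 base and comes from the other chromosome, reached its highest mean at 10 d as well. Its CPM in the vector line were 1596 and 1258 at 6 h, then 1858, 1194 and 1613 at 24 h, 1428, 1469 and 1872 at 3 d and finally 2200, 1860 and 1848 at 10 d. In the α1ACT line they were 1605, 1562 and 1299 at 6 h, then 2034, 1850 and 1819 at 24 h, 1759, 1311 and 1247 at 3 d and finally 2187, 2020 and 2115 at 10 d. The 10 d libraries as named lay above all 6 h libraries, but vector 3 d replicate 3 reached into the 10 d range. The step from 24 h to 3 d, -0.18 in the mean of both lines, did not pass (SE 0.104; adjusted p = 0.171). The lines had opposite signs there, -0.40 in the α1ACT line (adjusted p = 0.0503) and 0.04 in the vector line (adjusted p = 0.919), and neither passed. From 3 d to 10 d miR-29c-3p rose by 0.43 (SE 0.104, 1.34-fold; adjusted p = 0.00164), with 0.55 in the α1ACT line (adjusted p = 0.00676) and 0.30, not called, in the vector line (adjusted p = 0.124).

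**Figure D2:**
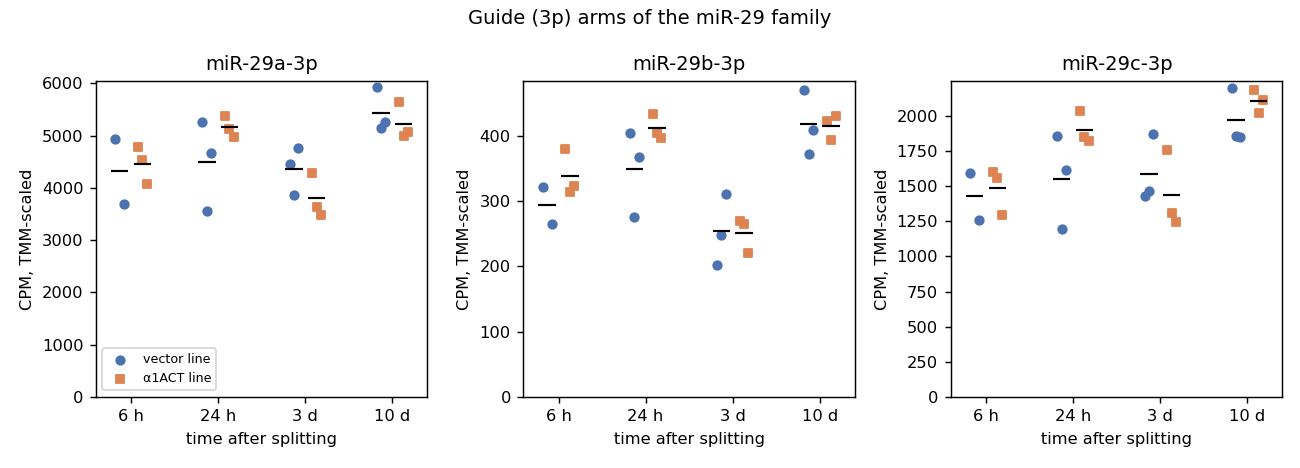
Level of the 3 3p arms in each of the 23 libraries, in TMM-scaled CPM, against time after splitting, with the mean of each group. With libraries named as in the sRNAbench table, those of 10 d for miR-29a-3p lie between 4992 and 5923 CPM, above all 3 d libraries (3487 to 4768), and those for miR-29b-3p between 373 and 471, above 202 to 312.

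The 5p arms of miR-29a and miR-29c rose from 3 d to 10 d, as their 3p arms did. Over both lines, with 5, 6, 6 and 6 libraries at the successive times, miR-29c-5p averaged 26.6, 29.2, 20.3 and 35.3 CPM and miR-29a-5p 8.33, 8.42, 4.92 and 11.9 CPM. In both, 3 d had the lowest mean and 10 d the highest. From 24 h to 3 d the steps did not pass, with -0.47 for miR-29c-5p (adjusted p = 0.0586) and -0.57 for miR-29a-5p (adjusted p = 0.187). From 3 d to 10 d both rose, miR-29c-5p by 0.75 (SE 0.192, 1.68-fold; adjusted p = 0.00226) and miR-29a-5p by 1.06 (SE 0.331, 2.09-fold; adjusted p = 0.0109). Within single lines that step passed for miR-29c-5p in the α1ACT line (1.00, adjusted p = 0.00676) but not in the vector line (0.49, adjusted p = 0.174), and for miR-29a-5p in neither (adjusted p = 0.0566 and 0.126). Every 10 d library of miR-29a-5p (9.63 to 15.1 CPM) lay above every 3 d library (0 to 7.77 CPM).

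miR-29b-5p, by its sequence the 5p arm of Mir29b2, went the other way. Its CPM in the vector line were 11.7 and 11.7 at 6 h, then 8.24, 4.15 and 5.27 at 24 h, 11.2, 21.3 and 20.9 at 3 d and finally 11.8, 12.7 and 9.41 at 10 d, with 5 counts behind the value of 11.2. In the α1ACT line they were 13.5, 10.4 and 12.04 at 6 h, then 11.4, 6.81 and 9.41 at 24 h, 32.5, 14.3 and 23.8 at 3 d and finally 11.3, 12.4 and 15.4 at 10 d. In each line all 3 d libraries lay above all 24 h libraries, and 24 h had the lowest mean. In the mean of both lines it rose by 1.50 from 24 h to 3 d (SE 0.222, 2.83-fold; adjusted p = 3.66e-06), by 1.66 in the vector line (adjusted p = 0.000421) and 1.34 in the α1ACT line (adjusted p = 0.00151). From 3 d to 10 d it fell by 0.81 (SE 0.208, 0.570 times the level; adjusted p = 0.00224), a step that passed in the α1ACT line (-0.86, adjusted p = 0.0241) and not in the vector line (-0.76, adjusted p = 0.0565).

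**Figure D3:**
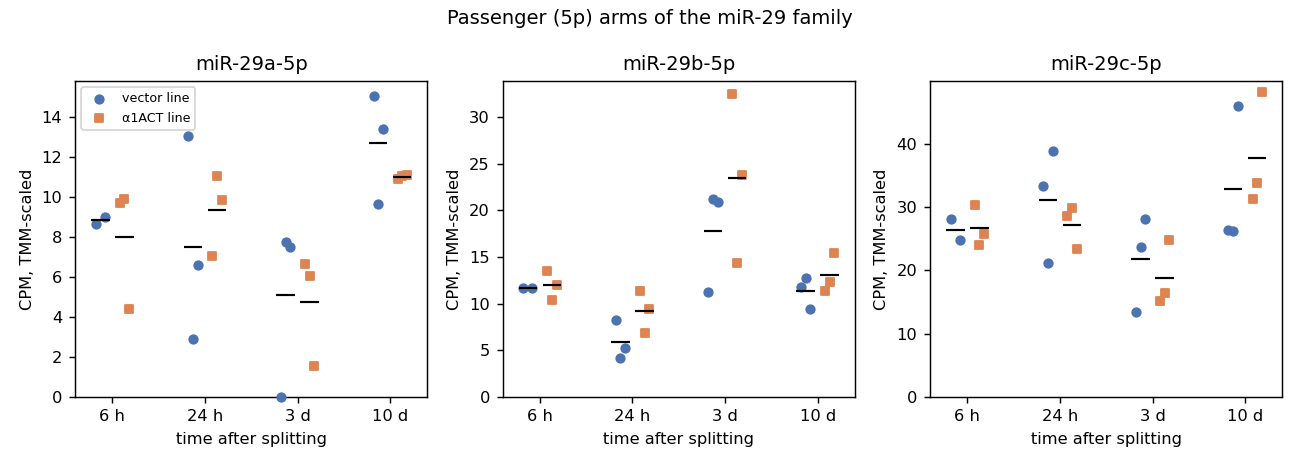
Level of the 3 5p arms in each of the 23 libraries, in TMM-scaled CPM on a linear axis, against time after splitting, with the mean of each group. miR-29b-5p has its highest means at 3 d (20.7 CPM over both lines, against 7.54 at 24 h), where miR-29a-5p and miR-29c-5p have their lowest.

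Counted over the family, 3 of 6 members passed between 24 h and 3 d in the mean of both lines (35.7% of all entries), 1 higher (16.4% of all entries) and 2 lower (19.3%). Between 3 d and 10 d all 6 passed (49.8%), 5 higher (25.7% of all entries) and 1 lower (24.2%), and the count was 6 under all 36 alternatives run. The median step of the members was -0.36 from 24 h to 3 d, against -0.05 over all tested entries, and 0.57 from 3 d to 10 d, against 0.02. These steps share the 3 d libraries, so a low 3 d value enters both. From 6 h to 24 h 0 of 6 passed with edgeR (15.6% of all entries did), while 3 had an unadjusted p under 0.05 (28.3% of all entries had). The nearest was miR-29b-5p at -0.66 (adjusted p = 0.0553).

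**Figure D4:**
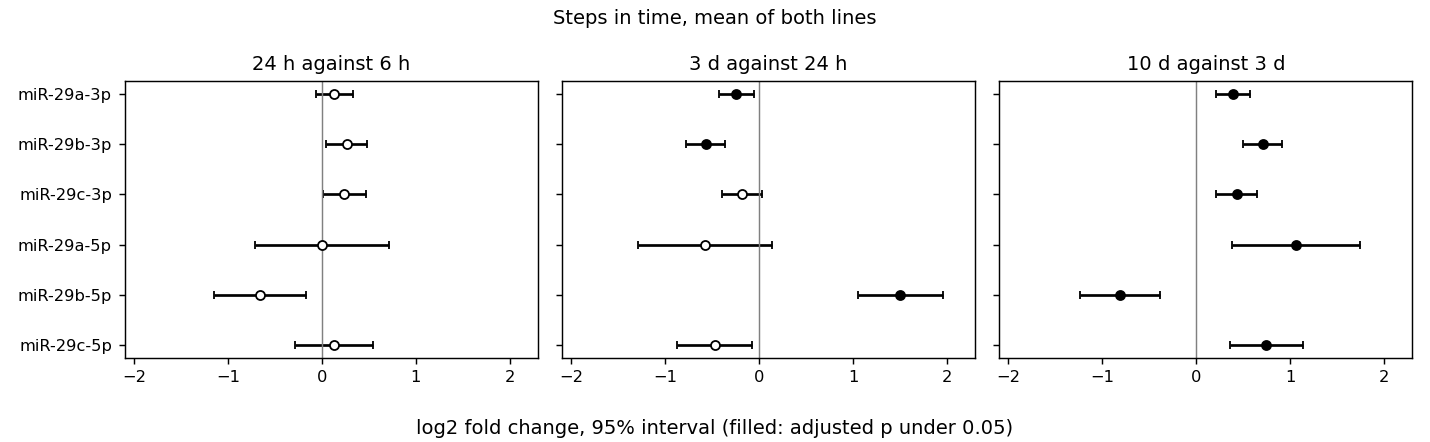
Fitted log2 fold change of each miR-29 member between neighbouring times in the mean of both lines, with 95% intervals and filled points for an adjusted p under 0.05. miR-29b-5p is the member with a positive step from 24 h to 3 d (1.50) and a negative one from 3 d to 10 d (-0.81), and the other 5 have the opposite signs.

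The ratio of the arms of miR-29b within a library needs no scaling between libraries. There were 22.6 to 30.3 counts of miR-29b-3p per count of miR-29b-5p at 6 h, 38.2 to 69.8 at 24 h, 8.30 to 18.6 at 3 d and 27.9 to 43.6 at 10 d. All 6 libraries of 3 d lay below all 17 libraries of the other times. In the Chimira table the 3 d libraries (8.63 to 18.6) also lay below the rest (19.5 to 57.4). miR-29c showed no such drop. Its ratio ran from 40.3 to 116 with a median of 73.1 at 3 d against 52.9, 59.2 and 64.9 at 6 h, 24 h and 10 d, and that for miR-29a from 393 to 2298 over the 22 libraries with a count of its 5p arm. Because miR-29b-3p sums over both hairpins, the ratio compares arms of which only the 5p sequence is that of Mir29b2 alone. Reads of the similar 5p arm of Mir29b1 may be counted with it. The ratios are a description, chosen after the values had been seen. How often the arm ratios of other miRNAs set 3 d apart was not counted.

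**Figure D5:**
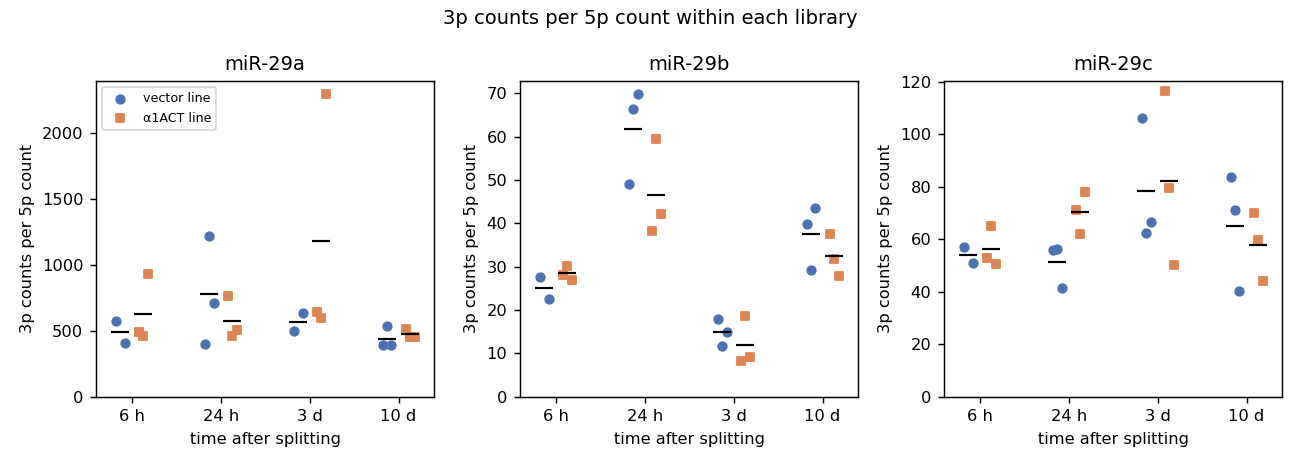
Counts of the 3p arm per count of the 5p arm of miR-29a, miR-29b and miR-29c in each library, on linear axes from 0 that differ between panels, against time after splitting, with short lines at the group means. The 3 d libraries of miR-29b lie between 8.30 and 18.6, below the 22.6 to 69.8 of all other libraries, and those of miR-29c overlap with the other times.

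Between 6 h and 10 d the 3p arms were higher at the later time, but the calls rested on the pair of libraries whose names disagree between the tables. As named in the sRNAbench table, the mean of both lines rose by 0.48 for miR-29c-3p (SE 0.111; adjusted p = 0.00136), 0.40 for miR-29b-3p (SE 0.107; adjusted p = 0.00431) and 0.28 for miR-29a-3p (SE 0.0955; adjusted p = 0.0221), 3 of 6 members beside 35.3% of all entries. With the pair exchanged, with both left out, or in the Chimira table, 0 of 6 passed, and without vector 6 h replicate 2 alone 1 of 6 did. The share of all entries that passed under these alternatives is not given here, so the loss of calls need not be particular to miR-29. The direction held in each case. With the pair exchanged the folds were 0.27 for miR-29c-3p, 0.22 for miR-29b-3p and 0.10 for miR-29a-3p on the log2 scale, and with both left out 0.33, 0.28 and 0.11. Within the vector line miR-29b-3p passed (0.51, adjusted p = 0.0315; 11.9% of all entries), and with the pair exchanged it did not. The α1ACT line holds neither library, and there miR-29c-3p passed (0.50, adjusted p = 0.0135; 27.1% of all entries), while miR-29b-3p gave 0.29 (adjusted p = 0.131) and miR-29a-3p 0.23 (adjusted p = 0.196). miR-29c-3p no longer did without α1ACT 6 h replicate 3 (0.35, adjusted p = 0.126).

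For the arms of miR-29b the steps around 3 d were called with and without that pair. The step from 24 h to 3 d uses neither library of the pair, so their exchange or omission can reach it only through the shared fit. The same holds, for either step, when a single library of a time outside that step is left out. In the Chimira table the step from 24 h to 3 d was 1.24 for miR-29b-5p (adjusted p = 2.94e-05) and -0.58 for miR-29b-3p (adjusted p = 0.000427). From 3 d to 10 d the Chimira table gave -0.78 for miR-29b-5p (adjusted p = 0.00204) and 0.64 for miR-29b-3p (adjusted p = 0.000171). For both arms of miR-29b both steps kept their sign and call under all 36 alternatives, with values of 1.24 to 1.70 and -0.94 to -0.64 for miR-29b-5p and -0.69 to -0.49 and 0.64 to 0.88 for miR-29b-3p.

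Across libraries the 3p arms varied together. Over 23 libraries Pearson's r of log2 CPM was 0.921 for miR-29a-3p with miR-29c-3p, 0.841 for miR-29a-3p with miR-29b-3p and 0.807 for miR-29b-3p with miR-29c-3p. With its own 3p arm, r was 0.545 for miR-29a-5p, 0.501 for miR-29c-5p and -0.341 for miR-29b-5p. These points share libraries, depth and scaling, so the values are a description. Among the 217 entries outside the family with at least 10 CPM, those most like miR-29a-3p were miR-153-3p (0.831), miR-22-3p (0.802), miR-27a-3p (0.785), miR-26a-5p (0.753) and miR-190a-5p (0.717). For miR-29b-5p, looked up after its course had been seen, they were miR-132-3p (0.745), miR-320-3p (0.718) and miR-760-3p (0.703).

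miRNAs that are known to act on the same processes as miR-29 were set beside it in 4 lists. Of the list linked to DNA methyltransferases, 4 of 7 tested entries passed the F test of time on the mean of both lines (59.9% of all entries). miR-101a-3p fell by 0.31 from 24 h to 3 d (adjusted p = 0.000642) and rose by 0.45 from 3 d to 10 d (adjusted p = 5.21e-06), and miR-101b-3p fell by 0.20 (adjusted p = 0.0391) and rose by 0.22 (adjusted p = 0.0155). miR-148b-5p did not pass in the first step (-0.06) and fell by 0.39 in the second (adjusted p = 0.00106). Between the lines 1 of 7 passed (12.6% of all entries), miR-152-5p with a fall of 0.25 in the α1ACT line (adjusted p = 0.0457).

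Of the list linked to matrix and fibrosis, 4 of 5 tested entries passed the F test of time (59.9% of all entries). miR-192-5p fell by 0.48 and then rose by 0.66 over the same steps (adjusted p = 1.03e-06 and 2.58e-09), while miR-143-3p, a miRNA of smooth muscle and fibroblasts, gave -0.34 (adjusted p = 0.0945) and then fell by 0.69 (adjusted p = 0.00113). miR-21-3p fell by 1.11 and then rose by 0.57 (adjusted p = 6.53e-05 and 0.0168), and miR-200b-3p rose by 0.93 and then fell by 1.70 (adjusted p = 0.0286 and 0.000182). The mean of miR-200b-3p was only 5.47 CPM, and its steps are imprecise (SE 0.330 and 0.338). Between the lines 2 of 5 passed (12.6% of all entries), miR-143-3p lower in the α1ACT line by 0.76 (-0.76, adjusted p = 0.000139) and miR-192-5p higher by 0.16 (adjusted p = 0.0195).

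Of the list linked to apoptosis, 7 of 9 passed the F test of time (59.9% of all entries). miR-16-5p, which represses Bcl2, rose by 0.37 and then fell by 0.31 (adjusted p = 0.000578 and 0.00255). miR-34a-5p, which p53 induces, rose by 0.50 and then fell by 0.38 (adjusted p = 0.00331 and 0.0172). miR-497-5p gave 0.05 (adjusted p = 0.625) and then rose by 0.27 (adjusted p = 0.00727). Between the lines 4 of 9 passed (12.6% of all entries), miR-34c-5p (0.47, adjusted p = 0.000391) and miR-34a-5p (0.33, adjusted p = 0.0214) higher in the α1ACT line and miR-195-3p (-0.22, adjusted p = 0.0134) and miR-15b-3p (-0.42, adjusted p = 0.0415) lower, the last pair named after its values had been seen.

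Of the list of neuronal maturation, 10 of 16 passed the F test of time (59.9% of all entries). miR-153-3p fell by 0.55 and rose by 0.89 (adjusted p = 2.26e-05 and 9.27e-09), and miR-138-5p fell by 0.38 and rose by 0.47 (adjusted p = 0.000350 and 2.17e-05). miR-212-5p fell by 0.89 and rose by 0.41 (adjusted p = 4.66e-05 and 0.0314). Of the 16, 2 were called higher and 5 lower from 24 h to 3 d, and 7 higher and 2 lower from 3 d to 10 d. Named after their values had been seen, miR-138-1-3p, with a mean of only 6.98 CPM, rose by 0.70 in the first step (SE 0.252, adjusted p = 0.0292). In the second, miR-128-1-5p fell by 0.67 and miR-218a-5p by 0.48 (adjusted p = 0.00218 and 0.00160). miR-132-3p, taken up here because it was the most like miR-29b-5p, rose by 0.69 from 24 h to 3 d (adjusted p = 6.53e-05) and gave -0.26 from 3 d to 10 d (adjusted p = 0.0779). Between the lines 3 of 16 passed (12.6% of all entries), all higher in the α1ACT line: miR-9a-5p (0.70, adjusted p = 0.000349), miR-138-5p (0.23, adjusted p = 0.0119) and, named after its value had been seen, miR-129-5p (0.49, adjusted p = 0.0490). The median step from 3 d to 10 d was 0.09, 0.17, -0.28 and 0.14 for the 4 lists in the order given, against 0.57 for the miR-29 members.

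Of the cell type markers, the glial list (miR-219a and miR-338, 4 entries) was lower at 3 d than at 10 d, as miR-29b-3p was. It summed to 307 to 425 CPM in the vector line and 393 to 433 CPM in the α1ACT line at 3 d, and to 595 to 659 CPM and 680 to 841 CPM at 10 d. With the doubted pair exchanged, a library of the vector 6 h group, where the list summed to 390 to 443 CPM, would stand at 10 d. Within each line the endocrine list was highest at 3 d, at 157449 to 190589 CPM over both lines, where miR-29b-3p was lowest. Fibroblast and smooth muscle miRNAs were lower at 10 d than at 24 h in each line, at 399 to 648 against 873 to 1322 CPM in the vector line and 303 to 360 against 544 to 786 CPM in the α1ACT line. The vector 6 h group, from which the exchange would move a library to 10 d, held 687 to 1046 CPM of them. The part of these lists in the course of miR-29 was not tested.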

How the data were processed

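The authors deposited 2 tables of raw read counts, whole numbers per mature entry without normalization; by their names one was made with sRNAbench and the other with Chimira. edgeR is named per the submitters' processing notes, and for versions, aligner, miRBase release and build the labels name nothing. The vector line was read from columns named control and the α1ACT line from those named WT, an assumption from the repeat length; 12 further columns of each table belong to none of the 23 samples and were not used. The row that names no miRNA holds 0 counts (0%) and was left out.

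Entries kept by filterByExpr (269 of 413; 305 of 627 in the Chimira table) were scaled by TMM and fitted in edgeR 4.0.16 (R 4.3.3, robust quasi-likelihood, 8 group means), with Benjamini-Hochberg adjustment over all of them and calls under 0.05. The biological coefficient of variation was 16.1%. Members and lists were chosen with earlier results of these data known. All members are named; of each list, the 4 called entries with the smallest p in the F test of time on both lines or in the line comparison; others are marked. Likeness used log2 CPM with a prior count of 2. Sequences came from RefSeq tables. Parts of the fitting procedure were tried on simulated data, with no result given here. That trial is not taken as a check of the comparisons of neighbouring times. Alternatives were the Chimira table, 3 scalings, 2 filters, DESeq2 1.42.0, limma-voom 3.58.1, a replicate block, the groups compared alone, the exchange or omission of the doubted pair and each library left out; the Chimira table with the exchange was added after seeing the data.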

Additional observations from a re-analysis of the deposited data

How the results depend on the processing

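The count of members that differed between the lines was 0 under all 35 alternatives, in the mean and at each time, as was the count for the interaction. Counts of members under an alternative are given, here and above, without the share of all entries called under it. A change in them need not be particular to miR-29. Of 36 fold changes followed, 28 kept their direction throughout. Counts of 5p arms limit their precision, as does the depth of vector 3 d replicate 1.

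From 10 d against 6 h in the vector line (1 member called), the count became 0 in the Chimira table, with library totals, with a filter of 10 CPM in 3 libraries, with the pair exchanged in either table, with the pair left out and with only the groups compared, and 3 with upper quartile scaling; over both lines (3 called) it became 0 in the Chimira table, with the pair exchanged and with it left out. The F test of time in the vector line (2) gave 1 in the Chimira table and with the exchange and 4 with upper quartile scaling, and over both lines (5) gave 3 with the exchange. The step from 6 h to 24 h (0) gave 1 with the 10 CPM filter and with the exchange in the Chimira table, and that from 24 h to 3 d (3) gave 5 with upper quartile scaling. That scaling moved the median of all entries by 0.17 for 10 d against 6 h in the vector line, -0.11 from 24 h to 3 d and 0.17 from 3 d to 10 d, and library totals moved the first by -0.11. The cause of the other changes was not tested.

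Some directions turned. For miR-29a-3p between the lines (-0.0017) the values were 0.0875 (upper quartile), 0.0696 (library totals), 0.00555 (10 CPM filter), 0.00682 (limma-voom) and 0.00851 (Chimira with exchange), and for miR-29c-5p 0.0241 (upper quartile). For 10 d against 6 h in the vector line miR-29a-3p (0.34) gave -0.0925 (Chimira) and -0.0226 (exchange), miR-29c-3p (0.46) -0.0372 (Chimira) and miR-29b-5p 0.12 (upper quartile). miR-29b-5p gave -0.0266 in the Chimira table in the α1ACT line, -0.0342 there with the exchange, and over both lines -0.14 (Chimira), -0.0378 (library totals), -0.0166 (limma-voom), -0.0264 (exchange), -0.11 (pair left out), -0.00395 (only the groups compared) and -0.16 (Chimira with exchange).

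Leaving out single libraries gave ranges of -0.0592 to 0.0511 for miR-29a-3p, -0.21 to 0.0784 for miR-29a-5p and -0.11 to 0.0236 for miR-29c-5p between the lines, and for miR-29b-5p at 10 d against 6 h of -0.0489 to 0.20 in the α1ACT line, -0.17 to 0.0853 in the vector line and -0.0534 to 0.0934 over both. Counts called ran from 0 to 1, 0 to 2 and 1 to 3 for these 3 comparisons, 0 to 2 from 6 h to 24 h, 2 to 5 from 24 h to 3 d (5 without vector 24 h replicate 2), and for the F test of time 3 to 5 in the α1ACT line (3 without 3 d replicate 1 or 2) and 2 to 4 in the vector line (4 without 24 h replicate 1).

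Replicate numbers were not shown to pair the samples: deviations of same-numbered samples correlated between -0.543 and 0.517 over 11 pairs, 4 of them over 0.1. With a replicate block 3 members were called for 10 d against 6 h in the vector line, 4 in its F test of time and 1 from 6 h to 24 h, and the line difference of miR-29a-3p was 0.00685.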
